A study of Mus musculus with 6 samples.

Results

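The 8 transcripts described here mark fibroblasts of the meninges and of vessel walls: Ptgds, Igfbp2, Vcam1, Dcn, Col1a1, Col1a2, Col3a1 and Igf2. They were taken by gene symbol from a table of estimated counts of 17459 genes in purified brain microglia, and all 8 were found there. The cKO mice were Mir137loxP/loxP;Tmem119-CreERT2, in which tamoxifen switches on a Cre recombinase made under the microglial gene Tmem119 and the loxP-flanked Mir137 alleles are removed. The cWT mice were Mir137+/+;Tmem119-CreERT2, with the same Cre and the same tamoxifen but intact Mir137. All were C57BL/6J males labelled as 8 weeks old, given tamoxifen on 7 days at 7 to 8 weeks of age, and 3 libraries were sequenced for each genotype. The labels name 4 mice in the isolation without saying how they fall into libraries, so p-values measure only the spread between these libraries, which may be technical.

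Fibroblasts of the meninges lie in the dura, arachnoid and pia, and follow the vessels into the brain. They build the collagen matrix around the brain, release growth factors and their binding proteins into the cerebrospinal fluid, and are not related to microglia, which are macrophages. Collagens I and III are the fibrillar collagens of connective tissue: Col1a1 and Col1a2 encode the chains of type I, Col3a1 that of type III. Decorin, from Dcn, is a small proteoglycan that coats collagen fibrils. Ptgds makes prostaglandin D2 and its product is an abundant protein of the cerebrospinal fluid, while Igf2 and Igfbp2 encode a growth factor and a protein that binds it. Vcam1 encodes an adhesion protein for leukocytes that carry the integrin of the Itga4 and Itgb1 chains. Of these genes, Ptgds is also used by oligodendrocytes and the choroid plexus, Igf2 and Igfbp2 by the choroid plexus, Igfbp2 by astrocytes, and Vcam1 by activated endothelium.

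Total counts per library ran from 12068698 to 15212806 in cKO and from 16503817 to 17482042 in cWT, and 13490 genes passed the filter on low counts. Of these, 72.1% were called in either direction, 35.6% higher and 36.5% lower in cKO, at an adjusted p under 0.05 in edgeR's quasi-likelihood test, so a call by itself sets no gene apart. Fold changes fell with transcript length across genes, which are not independent replicates, with a Spearman correlation of -0.72 over 12983 genes. Values of the 8 genes are therefore followed by the median of the gene's length class (1 of 10 equal groups of genes ordered by length) and by a fit with offsets for length and GC content. With scaling by library totals in place of TMM, fold changes of all genes shifted by a median of -0.39 on the log2 scale and 33.1% of calls were increases, against 49.4% with TMM. For Mir137 the authors' deposited table lists a base mean of 0, so its loss was not checked here.

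All 8 genes passed the filter, Col1a1 only through its cWT libraries. Together they held between 5833 and 7880 counts in the cKO libraries and between 4105 and 5044 in the cWT libraries. In cKO that was 0.0483%, 0.0627% and 0.0461% of all counts, and in cWT 0.0249%, 0.0301% and 0.0237%. The summed level of the 8 genes was 568, 698 and 533 CPM in cKO and 218, 258 and 209 CPM in cWT, where CPM is the count scaled to a common library size with TMM factors. The sum was thus higher in every cKO library than in any cWT library, but it was made up differently. Ptgds gave 33.9%, 37.4% and 31.6% of the counts of the 8 genes in cKO, against 10.04%, 12.1% and 12.2% in cWT. The 3 collagen genes gave 1.15%, 1.02% and 1.54% in cKO, against 7.07%, 7.45% and 7.97% in cWT. In these bulk libraries, a change in the number of cells of a type and a change in RNA per cell cannot be told apart.

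Per kilobase of transcript, the order of levels in cKO was Ptgds (230 ± 53.3 CPM per kilobase), Igfbp2 (103 ± 7.14), Vcam1 (46.8 ± 6.01), Igf2 (20.3 ± 2.29), Dcn (4.08 ± 0.71), Col1a2 (0.875 ± 0.103), Col3a1 (0.418 ± 0.0801) and Col1a1 (0.0449 ± 0.0175) (SD, n = 3). The ranges of neighbours in that order did not overlap. In cWT the order per kilobase was Igfbp2 (34.7 ± 4.88 CPM per kilobase), Ptgds (29.1 ± 5.28), Vcam1 (23.4 ± 2.08), Igf2 (13.9 ± 2.93), Col1a2 (2.07 ± 0.276), Dcn (1.98 ± 0.436), Col3a1 (0.788 ± 0.0605) and Col1a1 (0.286 ± 0.087) (SD, n = 3). There the ranges of Igfbp2 and Ptgds, of Ptgds and Vcam1, and of Col1a2 and Dcn overlapped. The order thus differed between the genotypes at Ptgds against Igfbp2 and at Dcn against Col1a2.

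**Figure D1:**
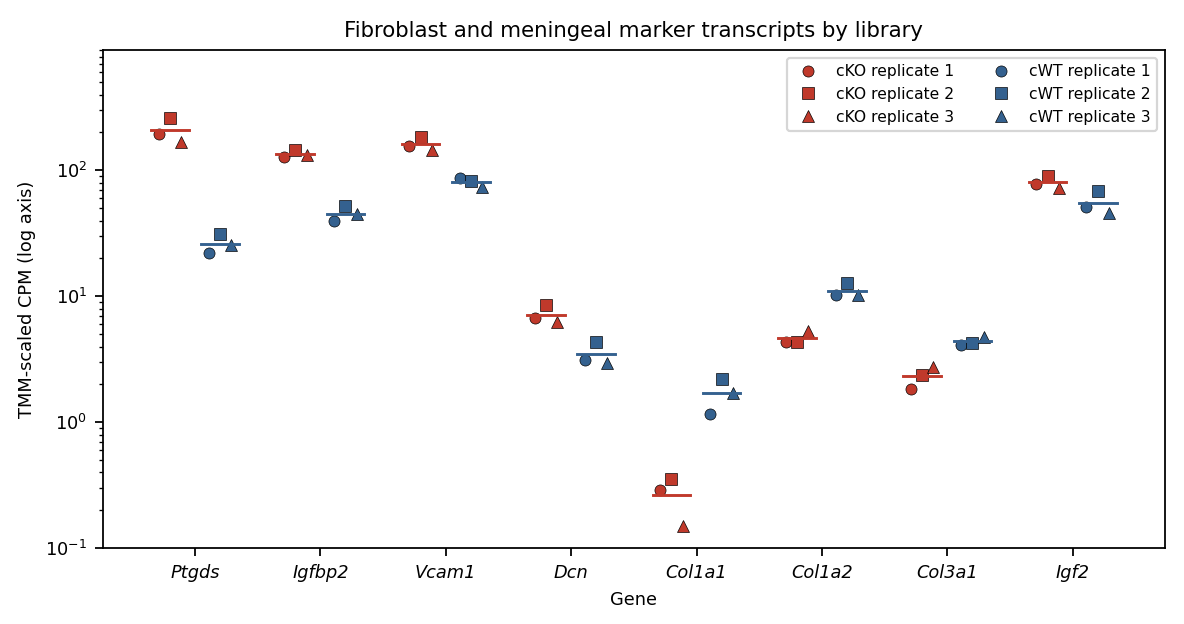
TMM-scaled CPM of the 8 marker genes (log axis) in each library, with cKO in red and cWT in blue, a symbol for each replicate and a line at the mean of 3. The genotypes did not overlap for any of the 8 genes; Ptgds, Igfbp2, Vcam1, Dcn and Igf2 were higher in cKO and Col1a1, Col1a2 and Col3a1 lower.

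In the comparison of cKO with cWT, 5 of the 8 genes rose (Ptgds, Igfbp2, Vcam1, Dcn and Igf2) and 3 fell (Col1a1, Col1a2 and Col3a1), where 35.6% of all genes tested rose and 36.5% fell. The median log2 fold change of the 8 genes was 0.77, beside -0.02 over all genes tested. The genotypes did not overlap for any of them, which was also so for 36.7% of all genes in the upward and 37.9% in the downward direction. The genes that rose had transcripts of 901 to 3970 bases and the genes that fell transcripts of 5348 to 5930 bases. Ptgds, Igfbp2, Vcam1 and Igf2, all among the genes that rose, are also used by other cells. The part of those cells in this split was not tested. With the offsets, 4 of the 8 genes were called higher (Ptgds, Igfbp2, Vcam1 and Igf2) and 1 lower (Col1a1), where 28.1% and 29.1% of all genes were called. Dcn, Col1a2 and Col3a1 then stood at log2 fold changes of 0.09, -0.16 and 0.09, with no call.

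The start regions of Ptgds and Igfbp2, the genes with the largest increases, and of the collagen genes Col1a2 and Col3a1, which fell together, are shown because these genes moved in opposite directions. They are RefSeq windows of GRCm38.p6 from 250 bases before to 50 bases after an annotated start, 5′ to 3′ on the gene's strand. Entries for 5 of the 8 genes were matched by symbol, with more than 1 start for Igfbp2 and Igf2. Capitals mark matches, on either strand, to TATAAA (the TATA box), CCAAT (the site of the factor NF-Y) and GGGCGG (the GC box of Sp1), none of which overlap each other here. Over 32851 such windows, 13.6% held TATAAA, 37.4% CCAAT and 35.7% GGGCGG.
Ptgds, chr2:25469700-25469999, minus strand: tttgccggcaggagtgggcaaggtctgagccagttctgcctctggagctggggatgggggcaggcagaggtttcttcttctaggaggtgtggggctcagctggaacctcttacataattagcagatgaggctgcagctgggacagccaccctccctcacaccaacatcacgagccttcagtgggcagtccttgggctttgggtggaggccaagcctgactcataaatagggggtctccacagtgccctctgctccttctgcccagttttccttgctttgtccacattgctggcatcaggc
Igfbp2, chr1:72824230-72824529, plus strand: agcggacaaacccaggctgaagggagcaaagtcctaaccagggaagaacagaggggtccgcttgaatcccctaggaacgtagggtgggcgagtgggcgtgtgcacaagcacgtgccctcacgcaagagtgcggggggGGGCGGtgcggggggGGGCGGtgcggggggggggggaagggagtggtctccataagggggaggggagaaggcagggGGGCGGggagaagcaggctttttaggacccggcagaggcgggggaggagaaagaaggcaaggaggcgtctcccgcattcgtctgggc
Col1a2, chr6:4505368-4505667, plus strand: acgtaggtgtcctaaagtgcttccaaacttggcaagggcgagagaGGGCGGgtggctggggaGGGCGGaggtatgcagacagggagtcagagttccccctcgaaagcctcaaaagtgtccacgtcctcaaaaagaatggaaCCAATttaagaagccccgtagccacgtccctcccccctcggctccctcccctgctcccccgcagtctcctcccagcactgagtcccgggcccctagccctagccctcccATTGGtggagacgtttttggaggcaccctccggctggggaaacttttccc
Col3a1, chr1:45311288-45311587, plus strand: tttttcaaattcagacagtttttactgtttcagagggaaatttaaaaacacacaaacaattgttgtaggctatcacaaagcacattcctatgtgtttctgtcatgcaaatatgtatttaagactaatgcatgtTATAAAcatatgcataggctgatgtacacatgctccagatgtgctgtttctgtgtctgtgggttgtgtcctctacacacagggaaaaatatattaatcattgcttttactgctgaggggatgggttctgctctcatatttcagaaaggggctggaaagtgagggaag
In these windows the Igfbp2 sequence held 3 matches to GGGCGG, at 113, 98 and 37 bases before the start. The other Igfbp2 window, chr1:72825137-72825436 and not shown, held none of the motifs. Col1a2 held matches to GGGCGG at 205 and 188 bases before the start and to CCAAT at 109 bases before it, with another CCAAT match on the opposite strand beginning at the start itself. Col3a1 held a match to TATAAA at 117 bases before the start, and the Ptgds window held none of these motifs. A match is a run of letters only, and no binding was measured.

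Ptgds, which encodes lipocalin-type prostaglandin D synthase (chromosome 2, 25466709 to 25470046, GRCm38, minus strand), had the largest increase of the 8 genes. Its level was 193, 261 and 169 CPM in the cKO libraries and 21.9, 31.3 and 25.4 CPM in the cWT libraries. The lowest cKO library thus lay well above the highest cWT library, and replicate 2 was highest in each genotype. The mean was 207 ± 48.0 CPM in cKO and 26.2 ± 4.76 CPM in cWT (SD, n = 3 each). The difference was 2.98 on the log2 scale (SE 0.16, edgeR adjusted p = 1.52e-10). Its principal transcript has 901 bases in 7 exons and falls into the class of shortest genes, whose median log2 fold change was 1.57. With the offsets Ptgds stood at 1.63 (SE 0.27, edgeR adjusted p = 0.005436). The authors' deposited table gives 2.99 for Ptgds, and over all 8 genes its log2 fold changes differ from those given here by between -0.024 and 0.006.

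Igfbp2 (chromosome 1, 72824503 to 72852474, plus strand) encodes a secreted protein that binds the insulin-like growth factors. It was measured at 127, 145 and 132 CPM in cKO and at 39.4, 52.1 and 44.7 CPM in cWT. Every cKO library lay far above every cWT library relative to the spread within either genotype. The log2 fold change was 1.57 (SE 0.11, edgeR adjusted p = 5.357e-10), beside a median of 0.98 for the length class of its 1307-base transcript. With the offsets it was 0.80 (edgeR adjusted p = 9.453e-07).

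Igf2 (chromosome 7, 142650766 to 142666816, minus strand), the growth factor itself, changed least. Its counts were 804, 1023 and 959 in cKO and 961, 1335 and 914 in cWT, which gave 78.3, 90.6 and 72.8 CPM in cKO and 51.1, 68.3 and 46.2 CPM in cWT. The lowest cKO library lay only slightly above the highest cWT library. The log2 fold change was 0.54 (SE 0.13, edgeR adjusted p = 0.001125), and 0.15 with no call under scaling by library totals (edgeR adjusted p = 0.3469). Its annotated transcript of 3970 bases lies in a length class with a median of -0.40, and with the offsets Igf2 stood at 1.05 (edgeR adjusted p = 4.29e-05). Protein-coding transcripts of Igf2 range from 376 to 4722 bases, so its offset value holds only as far as the length used. The antisense gene Igf2os, which overlaps Igf2, had between 0 and 7 counts in any library. Gm49394 and Mir483 also overlap Igf2 and were not analysed here.

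Vcam1 (chromosome 3, 116109949 to 116129688, minus strand), the leukocyte adhesion protein, went against the trend with length. Its level was 157, 185 and 145 CPM in cKO and 87.4, 82.9 and 73.3 CPM in cWT. The means of 162 ± 20.9 CPM in cKO and 81.2 ± 7.21 CPM in cWT (SD, n = 3 each) differ by 0.998 on the log2 scale (SE 0.11, edgeR adjusted p = 1.568e-07). The length class of its 3469-base transcript had a median of -0.19. With the offsets Vcam1 kept nearly the same value, 1.06 (SE 0.08, edgeR adjusted p = 7.999e-10). Vcam1 had the highest CPM of the 8 genes in cWT before division by length. The antisense gene Gm43109 overlaps it and was not analysed here, and with no strand setting stated, reads of overlapping genes cannot be told apart.

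Dcn (chromosome 10, 97479609 to 97518143, plus strand), which encodes the collagen-binding proteoglycan decorin, was low in all libraries. It had 69, 97 and 82 counts in cKO and 59, 85 and 58 counts in cWT. On the CPM scale this was 6.72, 8.59 and 6.23 in cKO and 3.14, 4.35 and 2.93 in cWT, with no overlap of the genotypes. The difference of 1.04 on the log2 scale (SE 0.23, edgeR adjusted p = 0.000633) stands beside a median of 0.62 for its length class (1758 bases). With the offsets Dcn was not called, at 0.09 (SE 0.23, edgeR adjusted p = 0.7695).

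Col1a1 (chromosome 11, 94936224 to 94953042, plus strand), which encodes the more abundant chain of type I collagen, was the rarest of the 8 transcripts. It had 3, 4 and 2 counts in the cKO libraries and 22, 43 and 34 in the cWT libraries. In cKO all 3 libraries were below the level that the filter asked for, so the gene was tested only because it was higher in cWT. Summed over libraries it had 9 counts in cKO and 99 in cWT, a ratio of 0.152 after scaling, with an exact 95% interval from 0.0675 to 0.301 that covers counting error only. The log2 fold change was -2.67 (SE 0.54, edgeR adjusted p = 0.0002247), where its length class (5930 bases) had a median of -0.99. With the offsets it was -1.35 (SE 0.57, edgeR adjusted p = 0.0486).

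Col1a2 (chromosome 6, 4504814 to 4541544, plus strand), the partner chain of type I collagen, had 45, 49 and 70 counts in cKO and 191, 249 and 202 in cWT. That was 4.38, 4.34 and 5.31 CPM in cKO and 10.2, 12.7 and 10.2 CPM in cWT, with no overlap of the genotypes. The difference of -1.23 on the log2 scale (SE 0.19, edgeR adjusted p = 1.361e-05) lay close to the median of -0.99 for its length class (5348 bases). With the offsets it was -0.16 (SE 0.18, edgeR adjusted p = 0.4595).

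Col3a1 (chromosome 1, 45311538 to 45349706, plus strand), the type III chain, had 19, 27 and 36 counts in cKO and 77, 84 and 94 in cWT. Its level was 1.85, 2.39 and 2.73 CPM in cKO and 4.10, 4.30 and 4.75 CPM in cWT, again with no overlap. The log2 fold change was -0.90 (SE 0.26, edgeR adjusted p = 0.005019), the median of its length class (5564 bases) was -0.99, and with the offsets the sign turned, to 0.09 (SE 0.26, edgeR adjusted p = 0.7821). Col1a2 and Col3a1 were thus lower in cKO in these counts and not with the offsets, while the call of Col1a1 rests on 2 to 4 counts per cKO library and on a filter that it passed through cWT.

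**Figure D2:**
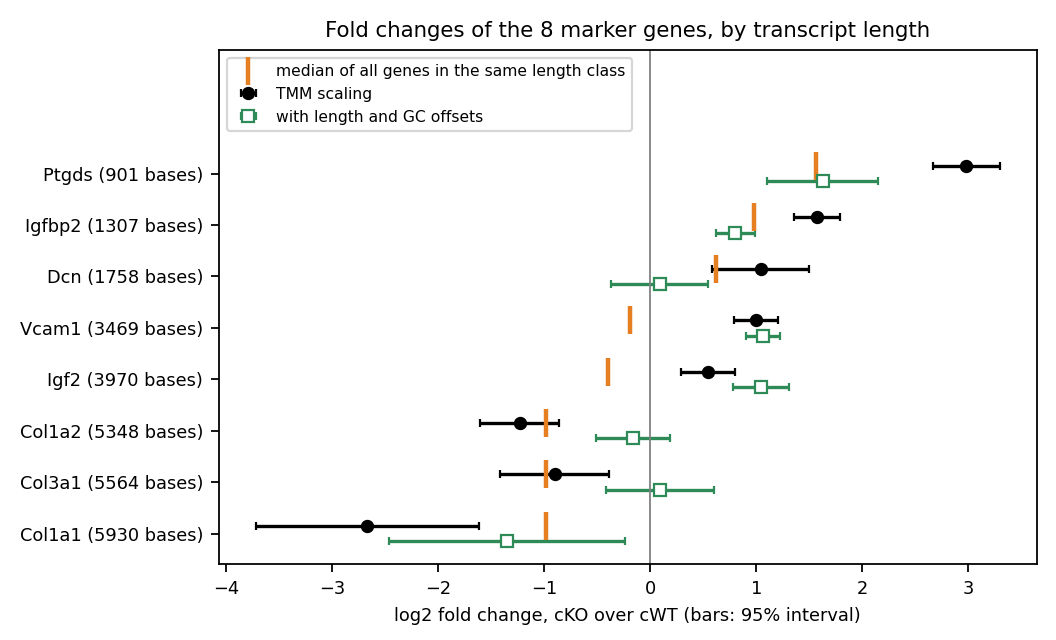
Log2 fold change of cKO over cWT for the 8 marker genes, ordered by transcript length from the shortest at the top. Black points are the TMM-scaled fit and open green squares the fit with offsets for length and GC content. Bars are approximate 95% intervals, taken from the SE with a normal quantile, so they can be narrower than the quasi-likelihood test implies. Orange ticks are the median of all genes in the same length class. With TMM scaling the intervals of Ptgds, Igfbp2, Vcam1, Igf2 and Col1a1 do not reach their tick, and the intervals of Dcn, Col1a2 and Col3a1 include 0 with the offsets.

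Ratios within a library do not depend on the scaling between libraries, but still hold any effect of transcript length. Dcn over Col1a2, per kilobase, was 4.67, 6.02 and 3.56 in cKO and 0.940, 1.04 and 0.874 in cWT. Both are used as fibroblast markers, and their ratio was more than 3 times higher in each cKO library than in any cWT library. Whether the reads of Dcn and Col1a2 came from the same cells was not tested. Their transcripts differ in length, with 1758 bases for Dcn and 5348 for Col1a2, and with the offsets their log2 fold changes were 0.09 and -0.16, a far smaller difference between the genes. Ptgds over Igf2 in counts was 2.46, 2.88 and 2.32 in cKO and 0.429, 0.458 and 0.550 in cWT. Col1a2 over Col1a1, per kilobase, ranged from 13.6 to 38.8 in cKO and from 6.42 to 9.63 in cWT, with the cKO values resting on 2 to 4 counts of Col1a1. The exact two-sided permutation test gave p = 0.1 for each of these 3 ratios, the smallest value that 3 libraries against 3 allow. Col3a1 over Col1a2, collagen genes of like length, was 0.406, 0.530 and 0.494 in cKO and 0.388, 0.324 and 0.447 in cWT, with overlapping ranges (exact permutation p = 0.2).

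Across the 8 genes the Spearman correlation of log2 fold change with transcript length was -0.98, and with the offsets it was -0.69. This is a description over 8 genes, which share the same 6 libraries.

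**Figure D3:**
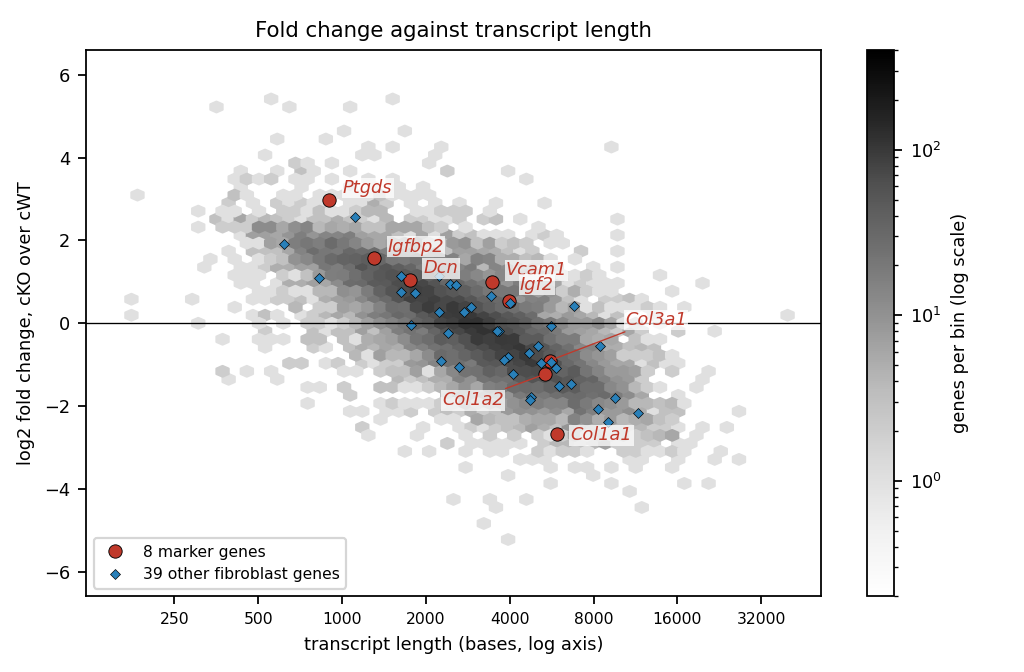
Log2 fold change of cKO over cWT against transcript length (log axis) for 12975 genes in grey (8 genes lie outside the axes), with the 8 marker genes in red and 39 other fibroblast genes in blue. Col1a2 and Col3a1 lie near the middle of the grey band, Igfbp2, Dcn, Vcam1 and Igf2 in its upper part, Ptgds at its upper edge and Col1a1 at its lower edge.

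Within each genotype the libraries also differed among themselves. Replicate 2 had the highest level of 6 of the 8 genes in cKO and of 6 of 8 in cWT. In deviations from the genotype mean of log2 CPM over the 6 libraries, Dcn and Igf2 were most alike (Pearson r = 0.98), followed by Ptgds and Dcn (0.89) and Ptgds and Col1a1 (0.89). Col1a2 and Col3a1 did not share this order, with r = 0.05 and -0.03 against Ptgds and 0.37 with each other. Of the 28 pairs 21 had a positive r, with a median of 0.47 and a range from -0.33 to 0.98. Since each genotype has 3 libraries, these values describe 6 libraries and carry no test. Without replicate 2 of both genotypes, an alternative chosen after seeing the data, the same 5 genes were called higher and the same 3 lower.

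Among 12223 other genes, those whose deviations were most like the mean of the 8 genes over the 6 libraries were Prg4 (r = 0.99), Sox13 (0.99), Gars (0.99), Ace (0.98) and Adap1 (0.98). In all, 110 genes had an r over 0.9. How many unrelated genes would reach such an r over 6 libraries was not tested. The named genes were picked as the highest of 12223, so their r alone does not show a link to the 8 genes. Prg4, which encodes the lubricating proteoglycan lubricin, was itself low and was not called, with 1.98 ± 0.899 CPM in cKO and 1.22 ± 0.826 CPM in cWT (n = 3 each). Ace, which encodes the angiotensin-converting enzyme, had 57.1 ± 6.48 CPM in cKO and 83.1 ± 14.0 CPM in cWT and fell by 0.54 on the log2 scale (edgeR adjusted p = 0.0006232), but Ace stood at 0.41 with the offsets. Sox13, a transcription factor, fell by 1.02 (edgeR adjusted p = 3.751e-06) and stood at -0.33 with the offsets. Gars, a tRNA synthetase, and Adap1 were not called, with log2 fold changes of 0.04 and -0.18.

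Whether the libraries hold fibroblast transcripts beyond the 8 was read from 46 other genes of these cells. The counts of 8 narrower markers were above 0 in every cKO and cWT library. Foxc1, a transcription factor of the meninges, had 88, 110 and 101 counts in cKO and 355, 381 and 329 in cWT, and Col6a3, a chain of type VI collagen, 29, 29 and 79 in cKO and 332, 406 and 446 in cWT. The other 6 were low. Pdgfra, the receptor of the platelet-derived growth factor, had 27 to 47 counts in cKO and 43 to 57 in cWT, and Aldh1a2, an enzyme of retinoic acid synthesis in the arachnoid, 5 to 12 in cKO and 20 to 35 in cWT. Lum, Slc6a13, Foxd1 and Twist1 had between 6 and 33 counts in cKO and between 5 and 42 in cWT. The summed level of these 8 markers was 21.7, 21.9 and 24.3 CPM in cKO and 44.3, 49.0 and 46.9 CPM in cWT. The 12 microglial markers summed to between 34720 and 39160 CPM in cKO and between 37260 and 39610 CPM in cWT. Of these markers 4 were higher and 6 lower, or 1 and 8 with the offsets. Narrow fibroblast markers were thus present at low levels beside abundant microglial transcripts. Foxc1 and Col6a3 carried most of their sum, and the other 6 markers, a split made after the values were seen, summed to 10.3, 9.56 and 10.6 CPM in cKO and to 7.77, 8.70 and 7.69 CPM in cWT. The direction of the sum thus turned with those 2 genes. Of the microglial markers Csf1r fell by 0.75 and stood at 0.08 with the offsets, and P2ry12 was not called (0.26) but was lower with the offsets (-0.37). Among the narrow fibroblast markers Foxc1 and Col6a3 fell and Lum and Slc6a13 rose, while Pdgfra, Aldh1a2, Foxd1 and Twist1 were not called. With the offsets Pdgfra was called higher (1.56, edgeR adjusted p = 0.0001012), Aldh1a2 (-1.26) and Col6a3 (-0.78) lower, and Foxc1 (0.12), Lum (0.50) and Slc6a13 (0.92) were not called. Aldh1a2, with 5 to 12 counts in cKO, was tested only through its cWT level. The median log2 fold change of the 8 markers was -0.07, and 0.44 with the offsets.

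Of the 46 other fibroblast genes 39 were tested, and 10 rose, 12 fell and 17 were not called (median log2 fold change -0.24). Lama1, among those that fell, had 3, 8 and 12 counts in cKO and 50, 46 and 37 in cWT. It was tested only through its cWT level. Of all genes tested 35.6% rose and 36.5% fell, or 28.1% and 29.1% with the offsets. These shares are the background for the counts of the lists that follow as well. The same split by length appeared as among the 8 genes. The 10 that rose had transcripts of 617 to 3994 bases (median 2033), and the 12 that fell transcripts of 4100 to 11511 bases (median 5925). Across the 39 genes log2 fold change and length had a Spearman correlation of -0.78, which was -0.15 with the offsets. With the offsets 5 of the 39 genes were called higher and 7 lower. Under scaling by library totals 4 were called higher and 18 lower. Their summed level was 612, 676 and 546 CPM in cKO and 776, 839 and 736 CPM in cWT. Unlike that of the 8 genes, it was lower in each cKO library than in any cWT library.

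Fn1, which encodes fibronectin and was the most abundant of them, fell by 2.07 on the log2 scale (94.5 ± 9.62 CPM in cKO, 396 ± 22.4 CPM in cWT, n = 3 each, edgeR adjusted p = 1.204e-11). Macrophages also make fibronectin. The matrix genes Fbln2, Col6a3 and Col15a1 fell by 1.79, 2.39 and 0.95. With the offsets Fn1, Fbln2 and Col6a3 were still lower (-0.57, -0.83 and -0.78), and Col15a1 was not called at 0.10. Mgp, an inhibitor of calcification, rose to 229 ± 62.9 CPM in cKO, against 61.0 ± 7.47 CPM in cWT, a log2 fold change of 1.91 (edgeR adjusted p = 1.099e-06), and with the offsets it stood at 0.08. Igfbp6, a binding protein that prefers IGF2, rose by 2.57 (9.66 ± 3.80 CPM in cKO, 1.61 ± 0.531 CPM in cWT, edgeR adjusted p = 7.149e-07) and stood at 1.59 with the offsets (edgeR adjusted p = 0.0006623). Serpinf1, which encodes a secreted inhibitor of vessel growth, rose by 0.73 and stood at 0.15 with the offsets, without a call.

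**Figure D4:**
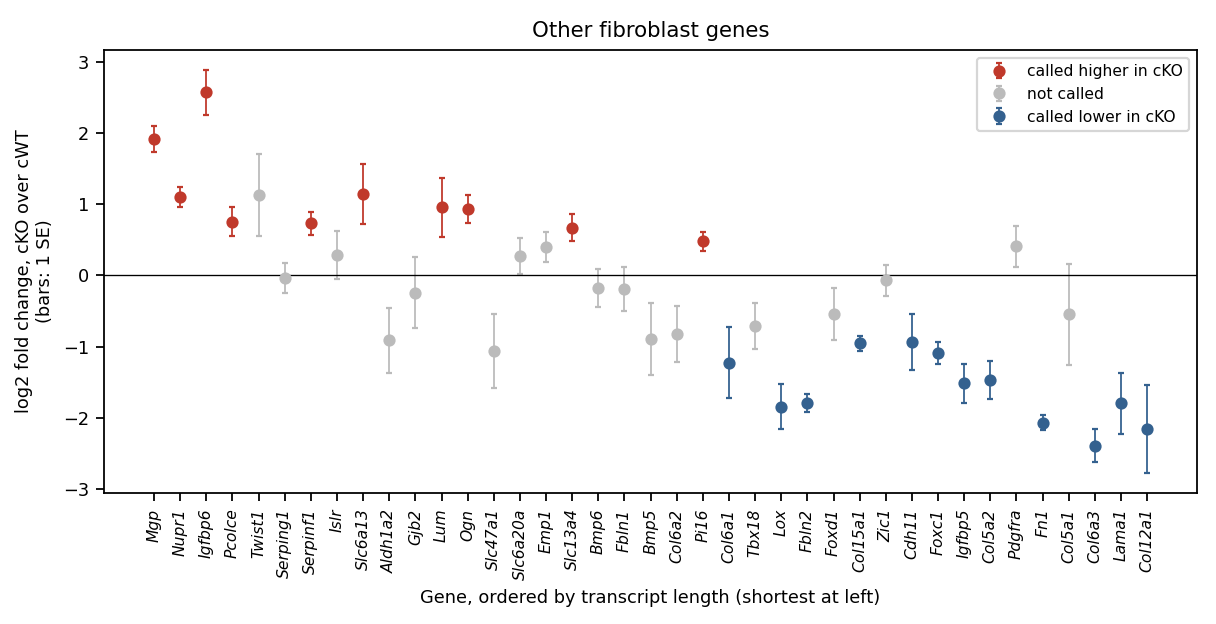
Log2 fold change of cKO over cWT (bars 1 SE) for the 39 tested genes of the fibroblast list beyond the 8, ordered by transcript length from the shortest at the left; red genes were called higher in cKO, blue genes lower, grey genes were not called. The 10 called higher lie at the short end, up to 3994 bases, and the 12 called lower at the long end, from 4100 bases.

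Of the 7 collagen chains in that list, all tested, 5 fell and none rose, with log2 fold changes between -2.39 and -0.55 over the 7. In the length classes that hold these chains (3949 to 11511 bases), between 51.2% and 83.2% of all genes fell. Of the 5, Col12a1 had 0, 7 and 7 counts in cKO and 27, 56 and 22 in cWT, so that it too was tested only through its cWT level. With the offsets 1 of them, Col6a3, was called lower. Genes that modify and secrete collagen were split, with 6 of 24 tested genes higher and 8 lower, or 7 and 6 with the offsets. The most abundant were P4hb, a subunit of prolyl hydroxylase and a disulfide isomerase, with a log2 fold change of 0.44, Ppib, a prolyl isomerase, with 1.18 that turned to -0.36 with the offsets, and the lysyl hydroxylase gene Plod1, which was not called (0.17). Mia3, which loads collagen into transport vesicles, fell by 1.33 (29.8 ± 2.28 CPM in cKO, 75.2 ± 1.504 CPM in cWT, edgeR adjusted p = 1.45e-09) and stood at -1.42 with the offsets. The offset value of Mia3 holds only as far as the length used, 2961 bases. Bmp1, the protease that trims procollagen, fell by 1.14 and stood at -0.55 with the offsets. P4hb, Ppib and Plod1 are used by all secreting cells.

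Genes of collagen uptake and breakdown, several of which belong to macrophages, had 3 of 16 tested genes higher and 8 lower (median -0.76), or 6 and 4 with the offsets. The cathepsin genes Ctsl and Ctsb rose by 1.31 and 0.58, and stood at 2.24 and 1.26 with the offsets. These offset values rest on transcript lengths of 6168 and 4743 bases and hold only as far as those lengths do. Lair1, an inhibitory receptor for collagen on leukocytes, rose by 0.51 and was not called with the offsets (0.14). The membrane protease gene Mmp14 fell by 1.28, with -1.26 under the offsets, and the collagen-binding integrin gene Itga1 by 1.74, and Itga1 was not called with the offsets (-0.28). Among the small leucine-rich proteoglycans to which Dcn belongs, 4 of 7 tested genes rose (Dcn, Lum, Ogn and Aspn) and 2 fell. The 2 that fell were Bgn, decorin's closest relative, with a log2 fold change of -1.37, and Prelp, with -1.02. Ogn rose by 0.94 and was not called with the offsets (0.37). None of the 7 was called higher with the offsets, while Bgn and Prelp were still lower at -1.57 and -0.63.

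In the insulin-like growth factor pathway 5 of 16 tested genes rose and 6 fell, or 7 and 2 with the offsets. All 5 that rose encode a ligand or binding proteins: Igf2, Igfbp2, Igfbp3, Igfbp6 and Igfbp7. This did not hold with the offsets. The receptor gene Igf1r fell by 1.36 but was called higher with the offsets (0.285). Irs1 was not called (-0.28) but was higher with the offsets (1.21). Igfbp3, the main carrier of the growth factors in serum, had counts of 1547, 2056 and 1531 in cKO and 568, 777 and 584 in cWT, a difference of 2.17 on the log2 scale (SE 0.15, edgeR adjusted p = 9.897e-10) and of 1.99 with the offsets. Igfbp7, the most abundant binding protein, rose by 0.87 and was not called with the offsets (-0.10), and Igfbp4 fell by 0.31 but stood at 0.22 with the offsets. The receptor gene Insr fell by 1.49 and was not called with the offsets (-0.06). In the prostaglandin pathway 6 of 13 tested genes rose and 3 fell, or 5 and 4 with the offsets. Hpgds, the haematopoietic prostaglandin D synthase of microglia, fell to 173 ± 15.7 CPM in cKO, against 307 ± 21.5 CPM in cWT (log2 fold change -0.83, edgeR adjusted p = 5.587e-07), and stood at -0.82 with the offsets. The synthases of prostaglandin D2 thus moved in opposite directions. Ptgs1, the cyclooxygenase upstream of both, was not called (-0.14), nor was the phospholipase gene Pla2g15 (0.21). Hpgd, which inactivates prostaglandins, rose by 0.86 but stood at -0.24 with the offsets, and Ptges2 rose by 1.57 and stood at 2.49. The offset value of Ptges2 holds only as far as the length used, 4978 bases. Of the 10 tested genes around Vcam1, 2 rose and 6 fell, or 2 and 4 with the offsets. Itga4, a chain of its receptor, fell to 6.59 ± 1.07 CPM in cKO, against 42.5 ± 1.96 CPM in cWT (log2 fold change -2.69, edgeR adjusted p = 1.733e-11), and stood at -1.38 with the offsets. Itga9 and Itgb1, other integrin chains that bind VCAM1, fell by 1.58 and 0.35, and the cytoskeletal linker gene Msn and the sheddase gene Adam17 by 0.48 and 0.68. With the offsets Itga9 (-0.32) and Adam17 (-0.20) were still lower, and Itgb1 (-0.12) and Msn (-0.17) were not called. Icam2 rose by 1.14 and was not called with the offsets (0.05).

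Other cells that use some of the 8 genes left transcripts that moved beside them. The 18 choroid plexus markers summed to 14010, 16110 and 11700 CPM in cKO and to 3165, 3410 and 2976 CPM in cWT. Within each genotype the libraries stood in the same order as for the sum of the 8 genes, with replicate 2 highest and replicate 3 lowest. The sum of the 46 other fibroblast genes had this order in both genotypes as well, so it is not particular to the choroid plexus. Of these 18 markers 15 rose and 1 fell (median 1.28), 14 were higher and 0 lower with the offsets, and none was at 0 in all libraries of a genotype. Ttr, transthyretin, gave most of the sum, with 12110 ± 1816 CPM in cKO and 2216 ± 130 CPM in cWT (n = 3 each), which is 2.45 on the log2 scale and 1.06 with the offsets. Enpp2 and 1500015O10Rik rose by 0.81 and 2.01, with 0.74 and 0.51 under the offsets. The 10 ependymal markers, led by Rarres2, Foxj1 and Cfap126, all rose, also with the offsets, and summed to between 88.7 and 123 CPM in cKO and between 14.3 and 20.7 CPM in cWT. Dynlrb2, among these markers, had counts of 12, 15 and 1 in cWT and was tested only through its cKO level. The part of the choroid plexus in the levels of Ptgds, Igfbp2 and Igf2 was not tested.

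Oligodendrocyte markers summed to between 2034 and 2606 CPM in cKO and between 1578 and 1742 CPM in cWT, with 10 of 17 tested genes higher and 2 lower (9 and 1 with the offsets). Trf gave most of that sum, with 1721 ± 250 CPM in cKO and 1301 ± 88.6 CPM in cWT (SD). Trf and Cnp, among their most abundant genes, rose by 0.40 and 0.60, with 0.29 and 0.50 under the offsets. Mog, named after its value was seen, rose by 2.25, with 1.44 under the offsets. Mbp, also named after its value was seen and more abundant than Mog, fell by 0.38, with -1.89 under the offsets. Its offset value rests on a length of 638 bases. Astrocyte markers summed to between 718 and 957 CPM in cKO and between 615 and 682 CPM in cWT, with 6 of 15 genes higher and 1 lower (11 and 0 with the offsets). Among the most abundant of them Clu rose by 1.16, with 0.64 under the offsets, and Slc1a3 was not called. Endothelial markers, which bear on Vcam1, were split with 8 of 18 higher and 8 lower (5 and 6 with the offsets) and summed to between 3531 and 4152 CPM in cKO and between 2415 and 2868 CPM in cWT. Slc2a1, Ly6c1 and Cldn5 led them and rose by 0.95, 1.96 and 0.66, with 1.20, 0.32 and, not called, -0.07 under the offsets. Kdr, named after its value was seen, fell by 2.41 and stood at -1.40 with the offsets. Mural cell markers overlapped between the genotypes, from 585 to 663 CPM in cKO and from 520 to 672 CPM in cWT, with 5 of 14 higher and 7 lower (2 and 5 with the offsets). Their leading genes Acta2, Tagln and Myl9 rose by 0.39, 1.58 and 1.52, with -0.16 (not called), 0.72 and 0.40 under the offsets. Notch3, named after its value was seen, fell by 2.69 and stood at -0.99 with the offsets. Markers of border-associated macrophages, which live beside the fibroblasts in the meninges, summed to between 1355 and 1535 CPM in cKO and between 2180 and 2381 CPM in cWT, with 7 of 12 higher and 3 lower (4 and 4 with the offsets). Stab1 and Mrc1, the most abundant, fell by 1.80 and 0.83, and F13a1 was not called. With the offsets Stab1 stood at -0.17, Mrc1 was not called (-0.12) and F13a1 was higher (0.27). Clec10a, named after its value was seen, rose by 1.68, with 0.70 under the offsets. Neuronal markers stayed low, from 20.9 to 28.0 CPM in cKO and from 17.4 to 18.3 CPM in cWT, led by Stmn2, Tubb3 and Meg3, with Nefl and Nefm at 0 in every cKO library. The part of each of these cell types in the levels of the 8 genes was not tested.

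**Figure D5:**
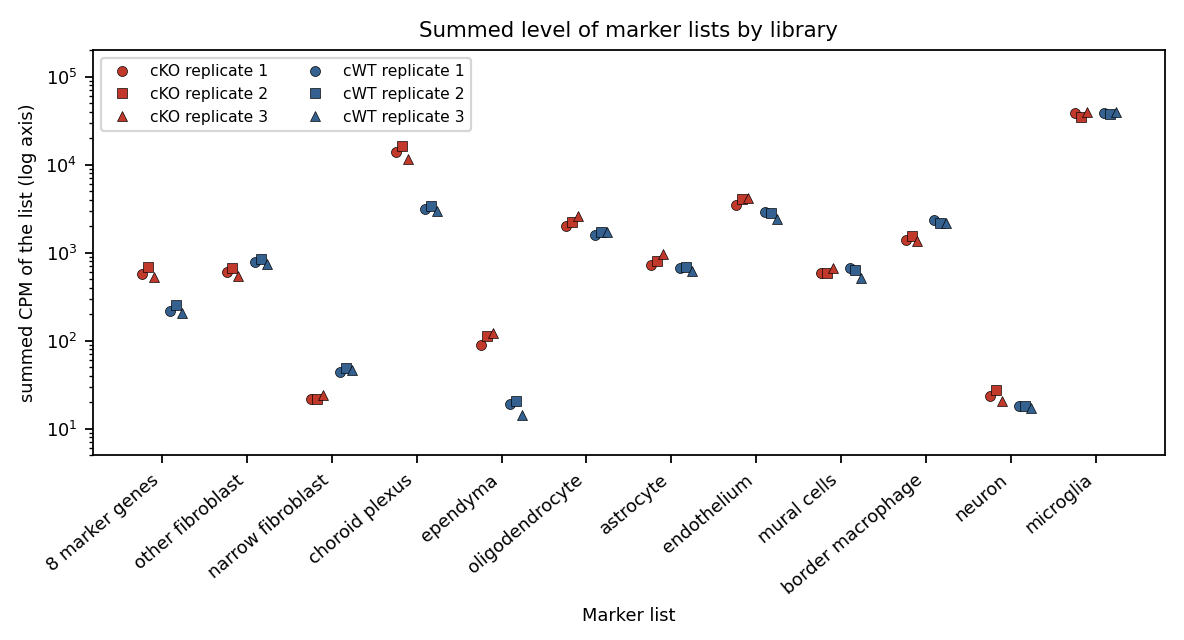
Summed TMM-scaled CPM (log axis) of the 8 marker genes and of marker lists for other cells in each library, with cKO in red, cWT in blue and a symbol for each replicate. Choroid plexus markers reached 11700 to 16110 CPM in cKO and 2976 to 3410 CPM in cWT, the narrow fibroblast markers 21.7 to 24.3 CPM in cKO and 44.3 to 49.0 CPM in cWT, and the microglial markers overlapped between the genotypes.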

How the data were processed

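Estimated counts per gene symbol and library were deposited by the authors. The submitters' processing notes list STAR 2.7.9a, RSEM, DESeq2 and the mouse build GRCm38 (mm10), whose roles, annotation and strand setting were not given in the sources used here. In each library between 5.5% and 5.85% of values were not whole, and all were rounded. A second deposited table of the authors' comparison holds, per the file headers, a base mean (a signal averaged over scaled libraries), log2 fold changes with their errors, a Wald statistic (a score), p-values and adjusted p-values.

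Genes were tested with edgeR 4.0.16 in R 4.3.3 (quasi-likelihood, two-sided, TMM scaling, robust, genotype as the only term) on the 13490 of 17459 genes that filterByExpr kept at a minimum count of 10, and with Benjamini-Hochberg adjustment over all of them. Transcript length and GC content came from the principal GENCODE M21 transcript (GRCm38), known for 96.2% of tested genes. Every offset value holds only as far as the length used. Offsets were natural splines of both, with 5 degrees of freedom each, fitted per library to deviations of log2 CPM from the gene mean. The fits were checked on simulated data. The length trend simulated there was built from the same annotated lengths, so errors in those lengths were not tested.

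The members, lists and tests were chosen with earlier results of these data known. Named genes are the 8 members, the most abundant genes of each list and, in the fibroblast and pathway lists, those of smallest p, all 8 narrow fibroblast markers, and the 5 genes most like the members within genotypes. Some genes that this rule takes are left out of the text. Alternatives were DESeq2 1.42.0, other scalings and filters, offsets, a replicate block and leaving out libraries.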

Additional observations from a re-analysis of the deposited data

How the results depend on the processing

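Col1a1 and Col3a1 did not reach 5 CPM in 3 libraries, so under that filter 1 of the 8 genes, Col1a2, was called lower. With length and GC offsets 1 was called lower as well, Col1a1, while Dcn stood at 0.088, Col1a2 at -0.16 and Col3a1 at 0.092, the last with its sign turned; other fibroblast genes called higher numbered 5 and lower 7. With library size alone Igf2 stood at 0.15, 4 other fibroblast genes were called higher and 18 lower, and the log2 ratio of the summed level (cKO over cWT) was 0.998 for the 8 genes and -0.75 for the other fibroblast genes, against 1.39 and -0.36 with TMM scaling; this scaling shifts the fold changes of all genes by a median of -0.39. DESeq2, RLE scaling, no filter, and leaving out each library, or replicate 2 of both genotypes, left the 5 increases and 3 decreases called. Without a library in turn, log2 fold changes ran from 2.80 to 3.12 for Ptgds, 0.42 to 0.72 for Igf2, -2.93 to -2.35 for Col1a1 and -1.03 to -0.78 for Col3a1 (highest edgeR adjusted p = 0.02521). Libraries of the same replicate number had correlated deviations over all genes at 0.103, 0.033 and 0.093, each library correlating best with its own number; this does not establish pairs. With a replicate block 4883 genes were called higher and 5028 lower, and 5 and 3 of the 8 genes, with Ptgds at 2.97 and Igf2 at 0.56. Depth limits Col1a1 most, with 2 to 4 counts per cKO library.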
